A study of Homo sapiens with 6 samples.

Results

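Long intergenic RNAs carry names of the form LINC and a number, and antisense RNAs carry the name of a neighbouring gene followed by AS and a digit. Of 22152 features in the deposited table, 273 had such a name (87 LINC names and 186 antisense names), and the 222 of them with a mean normalised read count of at least 10 over the 6 samples are described here: 53 LINC RNAs and 169 antisense RNAs. They were chosen by their names and by this mean, which is therefore no finding. The mean does not use the contrast between the groups. The other 51 names had a mean below 10, and 28 of these were at 0 in all 6 samples.

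The study asked how the transcriptome of human keratinocytes changes when they carry more miR-21-3p, a microRNA strand made from the same hairpin as the better known miR-21-5p. HaCaT cells, a spontaneously immortalised human keratinocyte line, were transfected with 1 nM of a negative control mimic (NC mimic, 3 samples) or with 1 nM of a synthetic miR-21-3p mimic (3 samples). RNA was extracted 48 h later. The labels give polyadenylated RNA, stranded mRNA libraries and 3 biological replicates in each group, whereas the published methods speak of small RNA libraries, and the labels were followed here. All 6 samples come from this 1 cell line, and polyadenylated RNA does not measure the mature microRNA strand, so the amount of miR-21-3p in each sample was not analysed here.

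Long noncoding RNAs are transcribed by RNA polymerase II and are mostly spliced and polyadenylated like messenger RNAs, but are not known to be translated into long proteins. Some act as scaffolds or decoys in the nucleus or the cytoplasm, and many have no known function. An antisense RNA is read from the strand opposite to a gene and may overlap it or start beside it, back to back, from a shared promoter. In keratinocytes, long noncoding RNAs such as TINCR are known for a part in terminal differentiation.

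The cell type label was compared with marker genes. Of 10 keratinocyte markers, 9 were measured, led by KRT5 with a mean normalised read count of 131833, DSP with 56900 and KRT14 with 35633, while KRT17 was not analysed here. The summed level of the 9 was 341990, 320880 and 338280 in NC mimic replicates 1 to 3 and 336760, 349520 and 320860 in miR-21-3p mimic replicates 1 to 3. KRT6A, a keratin of activated keratinocytes, was called higher (log2 fold change 0.34, limma adjusted p = 0.0020) and ITGB4, a hemidesmosome integrin, was called lower (-0.26, limma adjusted p = 0.038). Of other cell types, COL1A1 (1 of 6 fibroblast markers measured) had a mean of 424, with values of 560, 390 and 478 with NC mimic and 372, 378 and 364 with miR-21-3p mimic. Every miR-21-3p mimic value of this gene lay below every NC mimic value, the same direction as most members, and it was not called (log2 fold change -0.34, limma adjusted p = 0.063). PMEL (1 of 6 melanocyte markers) had a mean of 138 and CD14 (1 of 5 leukocyte markers) of 80.1. Of 4 endothelial markers, VWF had a mean of 745 and was not called, and CDH5, an adherens junction cadherin, was called lower (log2 fold change -1.30, limma adjusted p = 0.0026). The summed level of these 2 genes was 1197, 1087 and 1119 with NC mimic and 877, 925 and 883 with miR-21-3p mimic, and any part of other cell types in the results below was not tested.

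The values are read counts divided by 1 size factor per sample. The counts recovered from them came to 24402588, 24528084 and 26170936 reads in NC mimic replicates 1 to 3 and 24808070, 24974995 and 27985138 reads in miR-21-3p mimic replicates 1 to 3. At this depth a member with a value near 10 rests on about as many reads, and its error is correspondingly wide. The NC mimic samples were spread widely. On the first principal component over all features tested, which held 47.0% of the variance, NC mimic replicates 1, 2 and 3 lay at -21.2, -1.74 and -13.4, and miR-21-3p mimic replicates 1, 2 and 3 at 11.6, 6.81 and 17.9. By the chi-square per feature of the recovered reads, NC mimic replicate 2 was nearest to NC mimic replicate 3 (1.85), then to miR-21-3p mimic replicates 1 (2.21), 2 (2.25) and 3 (2.72), and farthest from NC mimic replicate 1 (2.85). NC mimic replicates 1 and 3 differed by more than replicates 2 and 3 and by less than replicates 1 and 2, and which of replicates 1 and 2 is the unusual one cannot be told apart. The lowest such value was 1.72, between miR-21-3p mimic replicates 1 and 2. These values set each pair of samples against the counting error of the reads alone. They do not include the spread between separate cultures, so nothing is concluded from their size.

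At their rule, the 3 members just inside the mean of 10 were ACTN1-AS1, MKNK1-AS1 (mean 10.4) and CIRBP-AS1 (11.9). The 3 names just outside were LINC00677 (9.65), CEBPA-AS1 (9.02) and AQP4-AS1 (8.11). In ACTN1-AS1 the values were 5.21, 8.24 and 11.7 with NC mimic and 8.16, 12.3 and 14.4 with miR-21-3p mimic, and in LINC00677 they were 8.34, 15.5 and 9.76 with NC mimic and 3.06, 12.3 and 8.97 with miR-21-3p mimic. In both RNAs the groups overlapped, and single replicates of a group differed from each other more than the group means did.

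Most members were of low abundance. Their median normalised read count was 125, against 648 over the 14782 features with a mean of at least 10. Of the 222, 35 had a mean from 10 to 50, 61 from 50 to 100, 110 from 100 to 1000 and 16 of 1000 or more. A few RNAs made up much of the whole, and the top 3 held 41.4% of the members' summed level. On the scale of normalised reads per kilobase of exon, with lengths from GENCODE 29 for the 216 members listed there, the median was 34.5 for LINC RNAs and 48.1 for antisense RNAs. C17orf76-AS1 stood highest on that scale with 4434, followed by LINC00657 with 3855, MYO16-AS1 with 2198, LINC00493 with 1081 and UNC5B-AS1 with 910.

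The names in the table are older than current ones. By their Ensembl identifiers, 45 of the 216 matched members now have another symbol. LINC00657 is now NORAD, C17orf76-AS1 is SNHG29, LINC00263 is OLMALINC, LINC00476 is ERCC6L2-AS1, LINC00704 is MANCR, and the identifier given for HIF1A-AS2 now belongs to HIF1A-AS3. RefSeq lists 10 of the members as protein coding, among them LINC00493 (SMIM26), LINC00094 (BRD3OS), LINC00116 (MTLN) and LINC00672 (LASP1NB), so not every member is a noncoding RNA by present annotation. HNRNPU-AS1 and ZNF205-AS1 are among the 6 members without a match in the annotation used here, and their position was not analysed.

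In the comparison of miR-21-3p mimic with NC mimic, 19 of the 222 members passed a Benjamini-Hochberg adjusted p of 0.05 in limma (8.56%), against 10.8% of all 14782 features tested. The direction was uneven. Among the members 16 were lower (7.21%), against 4.67% of all features, and 3 were higher (1.35%), against 6.15% of all features. The median log2 fold change of the members was -0.11, against 0.0045 over all features, and 154 members (69.4%) had a value below 0, against 48.9% of all features. All 3 miR-21-3p mimic values lay below all 3 NC mimic values in 57 members (25.7%; 14.8% of all features), and above them in 13 (5.86%; 16.5% of all features). By class, 1 LINC RNA was called higher and 4 lower of 53, with a median of -0.12, and 2 antisense RNAs were called higher and 12 lower of 169, with a median of -0.11. A difference between these 2 classes was not tested.

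These counts rest on few libraries and on the variance model. Without NC mimic replicate 2, the number of members called rose from 19 to 34 (5 higher, 29 lower), and the number of all features called rose from 1600 to 2961. Without NC mimic replicate 1 the numbers were 4 members and 544 features, without NC mimic replicate 3 they were 2 and 179, without miR-21-3p mimic replicate 1 they were 2 and 279, and without miR-21-3p mimic replicate 3 they were 5 and 368. Without miR-21-3p mimic replicate 2 they were 15 members, with 3 higher and 12 lower, and 1539 features. In each of these fits the number of members called and that of all features moved in the same direction, but not by equal shares. Without the variance trend limma called 48 features and none of the 19 members. In that fit 67 members had an unadjusted p under 0.05, and the same count over all features was not analysed. With the trend 57 of the 222 members had one, against 4218 of the 14782 features. For comparison, edgeR called 21 members and DESeq2 17. All 19 called members had the same sign in each of the 6 fits that left out 1 library. The median over the members was steadier than the counts and lay between -0.12 and -0.093 in the same 6 fits.

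**Figure D1:**
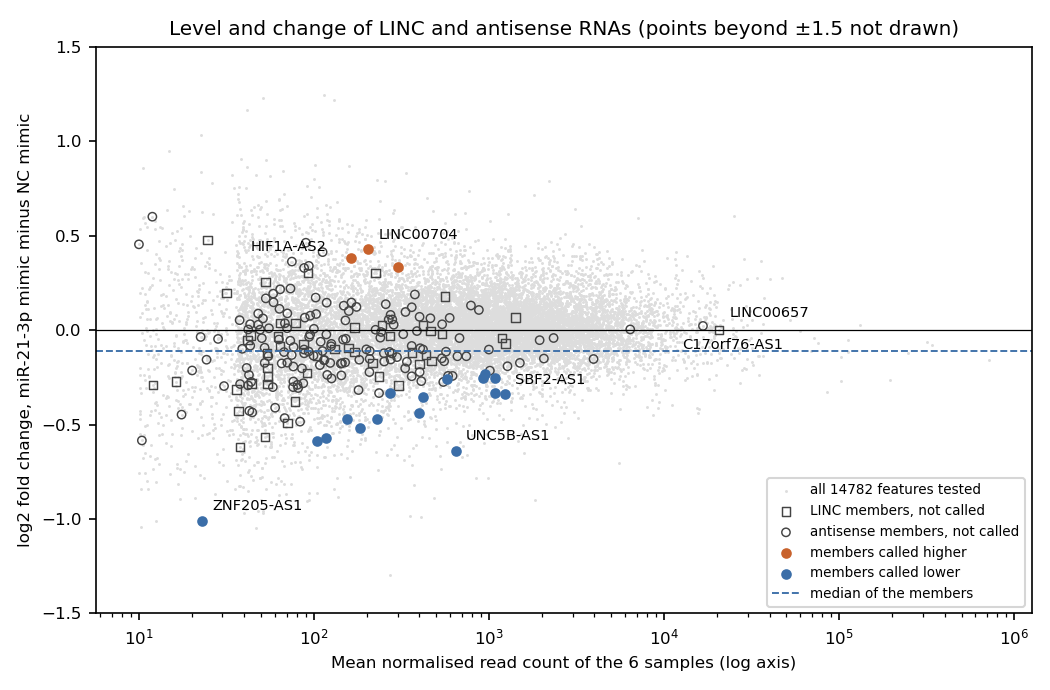
Mean normalised read count of the 6 samples (log axis) against the log2 fold change of miR-21-3p mimic over NC mimic, for the 222 members (open squares, LINC RNAs not called; open circles, antisense RNAs not called; filled circles, members called by limma) and all 14782 features tested (grey points; 3 features beyond 1.5 in size are not drawn, none of them a member). The 16 members called lower and the 3 called higher lie on both sides of the dashed median of the members at -0.11.

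The median of the members was below that of all features at each level of abundance, but the calls were not alike. For members with a mean of 100 to 1000 the median log2 fold change was -0.11, against 0.011 for all features in that range, and 12 of 110 were called lower (10.9%, against 4.30% of all features in that range) and 3 higher (2.73%, against 4.73%). For the 16 members with a mean of 1000 or more the median was -0.11, against 0.0076. Of these, 3 were called lower (18.8%, against 6.07%) and none higher in limma (569 of the 5683 features in that range were). An unadjusted p under 0.05 was found in 8 of the 16, against 2016 of the 5683. Calls were few at low levels among all features as well. Of the 61 members between 50 and 100 limma called none, against 4.29% of all features in that range. An unadjusted limma p under 0.05 was found in 12 of the 61, against 266 of the 1446 features in that range. Their median was -0.089, against -0.032, and all 3 miR-21-3p mimic values lay below all 3 NC mimic values in 11.5% of them, against 14.1% of all features in that range. Of the 35 between 10 and 50 limma called 1 (2.86%), against 3.27%, where the median was -0.20, against -0.069 for all features in that range.

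The same shift was seen sample by sample. The median over the members of the log2 value minus its mean over the 6 samples was 0.060, 0.019 and 0.056 in NC mimic replicates 1 to 3 and -0.048, -0.057 and -0.037 in miR-21-3p mimic replicates 1 to 3. Over all features it stayed between -0.0037 and 0.0048. The groups did not overlap, and NC mimic replicate 2 lay nearest to the miR-21-3p mimic samples. The members together took 0.430%, 0.416% and 0.427% of all normalised reads with NC mimic and 0.407%, 0.408% and 0.408% with miR-21-3p mimic, again without overlap.

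**Figure D2:**
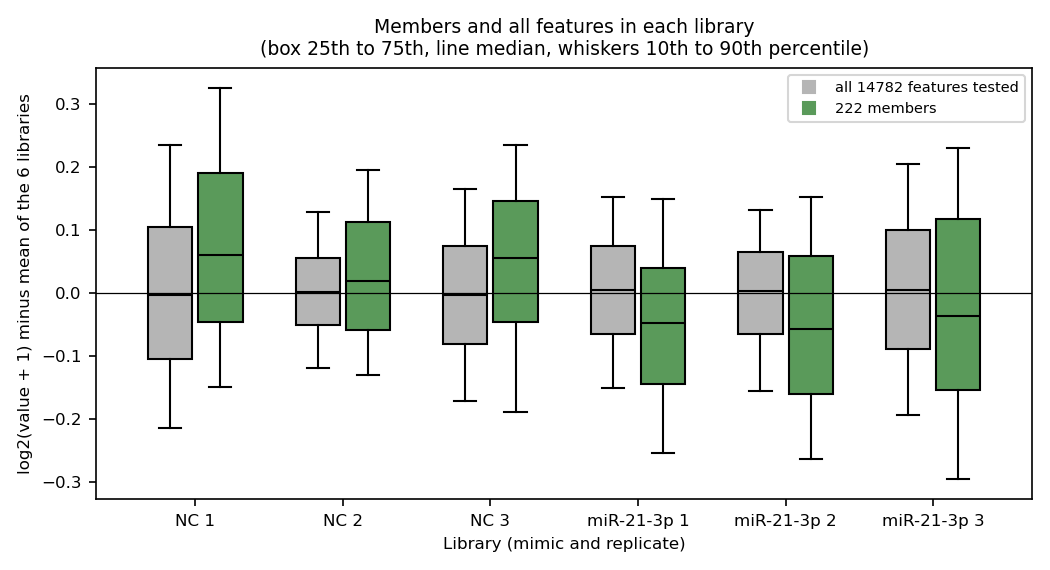
Log2 value of each feature minus its mean over the 6 libraries, in each library, for all 14782 features tested (grey) and the 222 members (green); boxes span the 25th to 75th percentile, lines are medians and whiskers reach the 10th and 90th percentile. The medians of the members lie at 0.060, 0.019 and 0.056 in the NC mimic libraries and at -0.048, -0.057 and -0.037 in the miR-21-3p mimic libraries.

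The 3 most abundant members hardly differed between the groups. LINC00657 (ENSG00000260032.1), now NORAD, a cytoplasmic RNA induced by DNA damage that binds PUMILIO proteins, had values of 20200, 20100 and 21400 with NC mimic and 20800, 21400 and 19600 with miR-21-3p mimic. The groups overlapped fully, and the log2 fold change was 0.0020 (95% interval -0.11 to 0.11; limma adjusted p = 0.98). C17orf76-AS1, the host gene of small nucleolar RNAs now called SNHG29, was at 16533 ± 404 (SD, n = 3) with NC mimic and 16800 ± 693 with miR-21-3p mimic (log2 fold change 0.023, limma adjusted p = 0.78). OIP5-AS1, the human counterpart of cyrano, which binds the RNA-binding protein HuR, had values of 6440, 6270 and 6470 against 6390, 6620 and 6230. For this RNA too the groups overlapped, and its log2 fold change was 0.0042 with a 95% interval of -0.089 to 0.097.

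Of the other abundant antisense RNAs, FGD5-AS1 had values of 4170, 4020 and 4290 with NC mimic and 3820, 3860 and 3550 with miR-21-3p mimic, and TTN-AS1, read opposite the gene of the muscle protein titin, had 2090, 2270 and 2130 against 2000, 1830 and 2020. In both, every miR-21-3p mimic value lay below every NC mimic value, but neither passed the test (limma adjusted p = 0.061 and 0.094). FGD5-AS1 was called after quantile normalisation (limma adjusted p = 0.041) and without NC mimic replicate 2 (0.027). HNRNPU-AS1 was at 2370 ± 113 against 2303 ± 121 (SD, n = 3). Among the LINC RNAs, LINC00263 had a mean of 1387 with NC mimic and 1450 with miR-21-3p mimic, LINC00094 of 1270 and 1210, and LINC00493 of 1203 and 1170. These 3 pairs of groups overlapped, and none was called by limma.

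Of the LINC RNAs that fell, LINC00511, an RNA often raised in squamous and other carcinomas, was the most abundant. Its values were 1120, 989 and 977 with NC mimic and 908, 825 and 896 with miR-21-3p mimic. The groups did not overlap, although NC mimic replicates 2 and 3 lay within 100 of the highest miR-21-3p mimic value, and it fell by 0.23 on the log2 scale (SE 0.067, limma adjusted p = 0.048). LINC00476, now named as the antisense RNA of the DNA repair gene ERCC6L2, had values of 621, 603 and 662 against 512, 540 and 521, a log2 fold change of -0.26 (limma adjusted p = 0.028). Here each group was tight and the gap between them was wider than the spread within either.

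LINC00113 had values of 286, 240 and 269 with NC mimic and 189, 208 and 176 with miR-21-3p mimic, a log2 fold change of -0.47 (limma adjusted p = 0.017). LINC00672, now annotated as the coding gene LASP1NB, had 141, 101 and 134 against 88.7, 88.1 and 70.9, a log2 fold change of -0.59 (limma adjusted p = 0.032). In both RNAs NC mimic replicate 2 was the lowest of its group and came closest to the miR-21-3p mimic samples. All 4 lost the call when NC mimic replicate 1, NC mimic replicate 3, miR-21-3p mimic replicate 1 or miR-21-3p mimic replicate 3 was left out, with adjusted p up to 0.15 for LINC00511, 0.14 for LINC00476, 0.081 for LINC00113 and 0.13 for LINC00672, and LINC00511 also without miR-21-3p mimic replicate 2.

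The LINC RNA that rose was LINC00704, now MANCR, an RNA named for its association with mitosis. Its values were 160, 191 and 169 with NC mimic and 226, 214 and 262 with miR-21-3p mimic. Every miR-21-3p mimic sample was higher than every NC mimic sample, and the log2 fold change was 0.43 (SE 0.11, limma adjusted p = 0.030). The call was lost without NC mimic replicate 1, NC mimic replicate 3, miR-21-3p mimic replicate 1 or miR-21-3p mimic replicate 3, with an adjusted p of at most 0.13.

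Among the antisense RNAs, UNC5B-AS1 (ENSG00000237512.2) had the smallest adjusted p of all members. It lies opposite UNC5B, a receptor for the guidance protein netrin. Its values were 808, 698 and 844 with NC mimic and 533, 537 and 441 with miR-21-3p mimic, so that the highest miR-21-3p mimic sample lay well under the lowest NC mimic sample. The mean went from 783 ± 76.1 to 504 ± 54.3 (SD, n = 3), a log2 fold change of -0.64 (95% interval -0.84 to -0.44; limma adjusted p = 0.0037). It was called in all 6 fits that left out 1 library, with adjusted p from 0.00013 to 0.033, and no other member was, but without the variance trend its limma adjusted p was 0.071.

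SBF2-AS1, opposite the gene of a myotubularin-related protein, had values of 1460, 1280 and 1380 with NC mimic and 1050, 1130 and 1070 with miR-21-3p mimic. TMEM9B-AS1 had 511, 425 and 433 against 336, 333 and 338. In both RNAs the miR-21-3p mimic samples lay close together, below every NC mimic sample. The log2 fold changes were -0.34 (SE 0.060, limma adjusted p = 0.0083) and -0.44 (SE 0.084, limma adjusted p = 0.011). PSMG3-AS1, beside a gene for a proteasome assembly chaperone, had 465, 471 and 467 against 390, 366 and 344, where the NC mimic samples were nearly equal, and a log2 fold change of -0.35 (limma adjusted p = 0.015). SBF2-AS1 lost the call without NC mimic replicate 3 or miR-21-3p mimic replicate 1 (highest adjusted p 0.053), TMEM9B-AS1 without miR-21-3p mimic replicate 1 (0.053), and PSMG3-AS1 without NC mimic replicate 3 or miR-21-3p mimic replicate 3 (highest 0.070).

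Near genes of the epidermis and of development, FLG-AS1 lies opposite the gene of filaggrin, a barrier protein of the cornified layer. It had values of 1410, 1020 and 1220 with NC mimic and 987, 946 and 938 with miR-21-3p mimic. NC mimic replicate 2 lay only just above the miR-21-3p mimic samples and NC mimic replicate 1 far above them, and the log2 fold change was -0.33 (SE 0.092, limma adjusted p = 0.039). HOXA-AS2, within the cluster of HOXA homeobox genes, had 1300, 1100 and 1120 against 961, 996 and 983, with a log2 fold change of -0.26 (limma adjusted p = 0.032). TPT1-AS1 starts beside TPT1, which encodes the translationally controlled tumour protein, and had 1070, 957 and 981 against 856, 777 and 893, with a log2 fold change of -0.25 (limma adjusted p = 0.035). In all 3 the miR-21-3p mimic samples were the lower ones, and NC mimic replicate 1 was the highest sample.

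Other antisense RNAs that fell had lower levels. UFL1-AS1, beside the gene of the ligase for the ubiquitin-like UFM1, went from a mean of 304 to 242, and INTS6-AS1, beside a subunit gene of the Integrator complex, from 180 to 128. SH3BP5-AS1 had values of 273, 182 and 197 with NC mimic and 145, 150 and 152 with miR-21-3p mimic. In SH3BP5-AS1, NC mimic replicate 1 stood far above the rest, whereas the miR-21-3p mimic samples were nearly equal. The log2 fold changes were -0.33 for UFL1-AS1, -0.47 for INTS6-AS1 and -0.52 for SH3BP5-AS1, with limma adjusted p of 0.030, 0.036 and 0.034. ZNF205-AS1 had the lowest log2 fold change of all members, -1.01, at the lowest level of the called members: 35.4, 23.7 and 33.2 against 9.18, 20.5 and 16.2. Its 95% interval of -1.66 to -0.36 was correspondingly wide, its limma adjusted p was 0.049, and DESeq2 gave it no adjusted p. It kept its call in 4 of 10 other settings and lost it after quantile normalisation (limma adjusted p = 0.071), without the filter (0.051) and with the replicate block (0.054).

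Leaving out a library cost these RNAs their calls. FLG-AS1, TPT1-AS1, INTS6-AS1, SH3BP5-AS1 and UFL1-AS1 kept the call only in the fit without NC mimic replicate 2, with adjusted p up to 0.13, 0.12, 0.13, 0.12 and 0.12 in the others. HOXA-AS2 and ZNF205-AS1 lost it without NC mimic replicate 1, NC mimic replicate 3, miR-21-3p mimic replicate 1 or miR-21-3p mimic replicate 3 (up to 0.12 and 0.17). Other settings ended calls too. FLG-AS1 was not called after quantile normalisation (limma adjusted p = 0.050), and UFL1-AS1 (0.053), LINC00476 (0.057), LINC00511 (0.058), MCM3AP-AS1 (0.058) and HIF1A-AS2 (0.061) were not called with the replicate block. LINC00511 (0.054) and MCM3AP-AS1 (0.055) were also not called without the filter.

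The 2 antisense RNAs that rose were HIF1A-AS2 and MCM3AP-AS1. HIF1A-AS2, opposite the gene of the oxygen-regulated transcription factor subunit HIF1A, had values of 145, 137 and 141 with NC mimic and 183, 192 and 178 with miR-21-3p mimic. Both groups were tight and well apart, and the log2 fold change was 0.38 (SE 0.099, limma adjusted p = 0.031). MCM3AP-AS1, opposite a gene for a protein of messenger RNA export, had 271, 289 and 237 against 362, 314 and 328, and a log2 fold change of 0.33 (SE 0.097, limma adjusted p = 0.045). Here the highest NC mimic sample, replicate 2, came close to the lowest miR-21-3p mimic sample. Neither was called by DESeq2, HIF1A-AS2 was called only without NC mimic replicate 2 among the fits that left out 1 library (adjusted p up to 0.11), and MCM3AP-AS1 lost the call without NC mimic replicate 1, NC mimic replicate 3, miR-21-3p mimic replicate 1 or miR-21-3p mimic replicate 3 (up to 0.19).

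**Figure D3:**
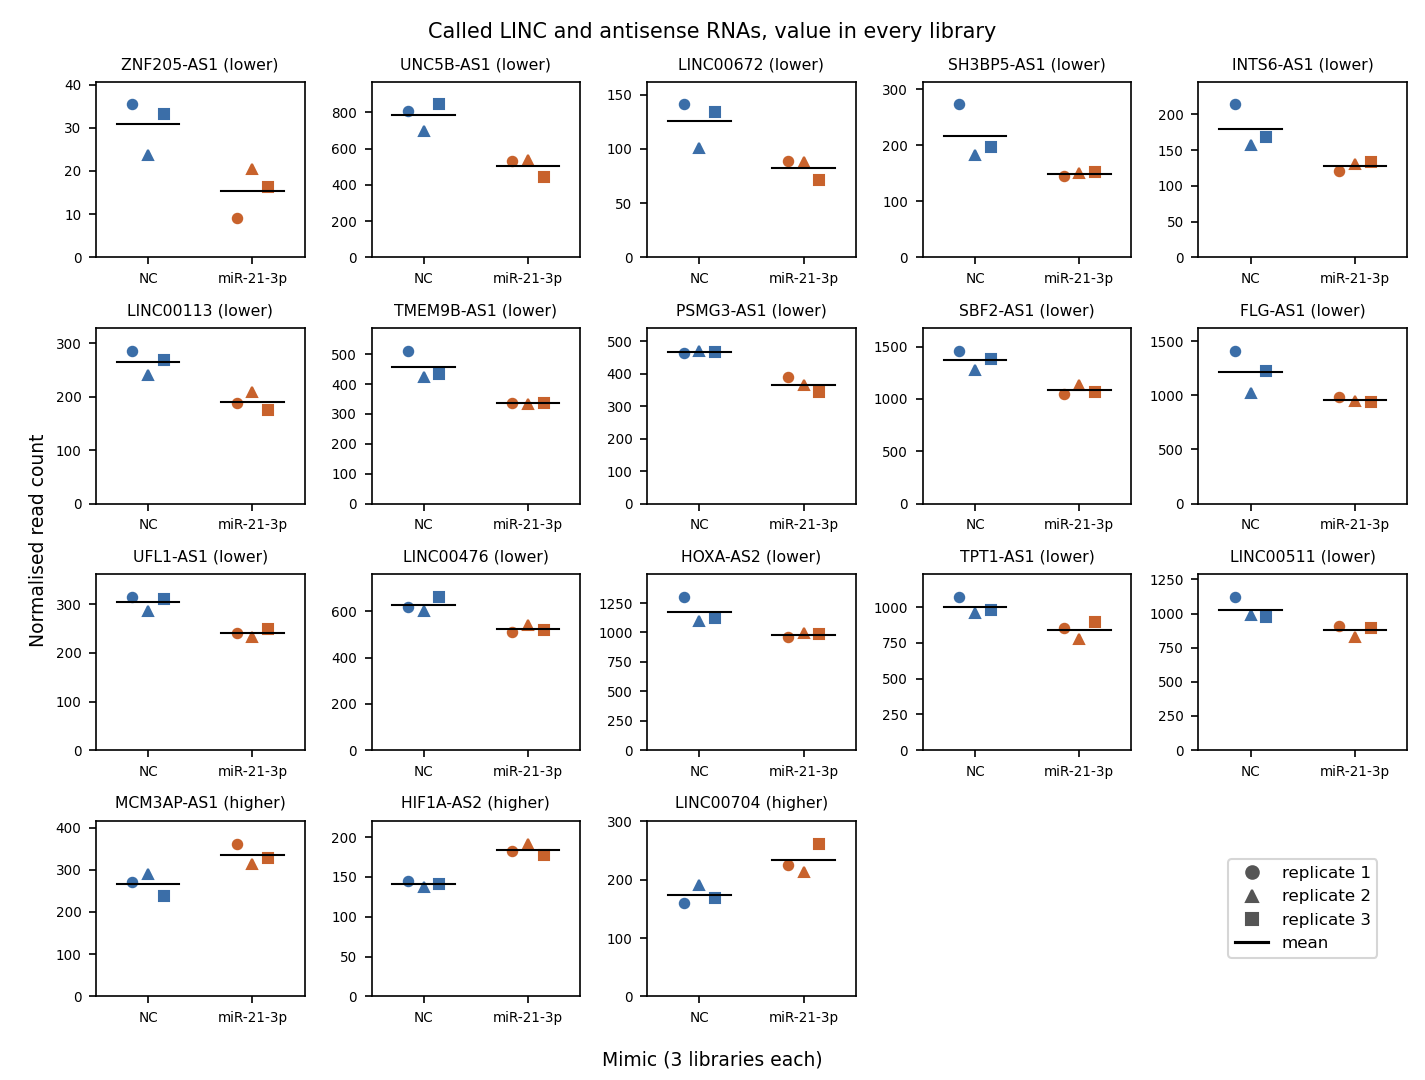
Normalised read count of 18 of the 19 called members in each of the 3 NC mimic (blue) and 3 miR-21-3p mimic (orange) libraries, with the mean of each group as a line; the marker shape gives the replicate number. In UNC5B-AS1 the miR-21-3p mimic libraries lie at 441 to 537 and the NC mimic libraries at 698 to 844.

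Just past the threshold lay HOXC-AS5 (log2 fold change -0.27, limma adjusted p = 0.050), C1RL-AS1 (-0.21, 0.055), MYO16-AS1 (-0.19, 0.055) and ATP6V0E2-AS1 (0.46, 0.057), 4 members singled out after their values were seen. ATP6V0E2-AS1 had values of 72.9, 75.2 and 77.1 with NC mimic and 108, 87.1 and 119 with miR-21-3p mimic. In these RNAs too the groups did not overlap. C1RL-AS1 was called by DESeq2, and C1RL-AS1 and MYO16-AS1 by edgeR, on the recovered reads, and both without NC mimic replicate 2. HOXC-AS5 was called after quantile normalisation, with a filter at a mean of 50 and without miR-21-3p mimic replicate 3, and ATP6V0E2-AS1 without miR-21-3p mimic replicate 2.

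Promoter sequences were available from RefSeq (GRCh38.p14) as windows from 250 bases before to 50 bases after a start site, and 173 of the 222 members were matched to 1 through their Ensembl identifier. The median GC content of these windows was 63.0% (58.0% for LINC RNAs, 65.3% for antisense RNAs), against 58.7% over all 35116 windows, and the median number of CG dinucleotides was 22, against 14. In the 11 matched windows of members called lower, the median GC content was 71.0% and the median number of CG dinucleotides 35. These are descriptions of the windows and were not tested against the fold changes.

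Of the called members whose windows hold no exon of a coding gene, 5 are shown: those with the smallest adjusted p (UNC5B-AS1, SBF2-AS1), the most abundant called LINC RNA, and a LINC RNA and an antisense RNA that rose. They lie as follows: UNC5B-AS1 at chr10:71218179-71218478 on the minus strand, within the gene body of UNC5B but outside its exons, SBF2-AS1 at chr11:9758043-9758342 on the plus strand, LINC00511 at chr17:72640423-72640722 on the minus strand, LINC00704 at chr10:4678021-4678320 on the minus strand, and MCM3AP-AS1 at chr21:46228981-46229280 on the plus strand. Each is written in the reading direction of the RNA, and capitals mark matches on either strand to the TATA-type motif TATAAA, to the box CCAAT, to the cyclic AMP response motif TGACGTCA, to the AP-1 motif TGAGTCA, to the ETS motif CCGGAAG, or to the E2F forms TTTGGCGC and also TTTCCCGC.
UNC5B-AS1: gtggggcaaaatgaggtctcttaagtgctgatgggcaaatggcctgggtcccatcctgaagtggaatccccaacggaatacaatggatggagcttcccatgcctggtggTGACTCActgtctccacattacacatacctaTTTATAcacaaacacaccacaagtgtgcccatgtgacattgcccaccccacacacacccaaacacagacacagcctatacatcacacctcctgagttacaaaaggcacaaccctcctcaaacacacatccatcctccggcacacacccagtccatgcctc
SBF2-AS1: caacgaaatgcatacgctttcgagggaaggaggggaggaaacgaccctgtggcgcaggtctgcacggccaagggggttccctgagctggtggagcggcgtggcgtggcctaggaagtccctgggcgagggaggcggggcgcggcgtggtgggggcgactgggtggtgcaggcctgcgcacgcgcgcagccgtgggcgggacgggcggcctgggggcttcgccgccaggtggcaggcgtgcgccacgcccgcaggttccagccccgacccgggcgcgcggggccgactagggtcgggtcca
LINC00511: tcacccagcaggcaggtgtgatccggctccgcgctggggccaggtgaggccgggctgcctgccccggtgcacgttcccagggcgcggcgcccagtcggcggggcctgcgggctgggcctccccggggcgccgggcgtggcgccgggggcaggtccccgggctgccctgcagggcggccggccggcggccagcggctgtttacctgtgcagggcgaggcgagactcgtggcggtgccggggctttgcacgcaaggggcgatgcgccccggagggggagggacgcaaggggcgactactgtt
LINC00704: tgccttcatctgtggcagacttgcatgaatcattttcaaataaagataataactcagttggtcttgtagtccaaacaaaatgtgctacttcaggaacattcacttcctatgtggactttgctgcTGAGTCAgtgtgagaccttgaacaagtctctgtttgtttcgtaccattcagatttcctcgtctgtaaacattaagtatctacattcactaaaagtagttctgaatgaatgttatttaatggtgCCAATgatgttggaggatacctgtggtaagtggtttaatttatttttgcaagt
MCM3AP-AS1: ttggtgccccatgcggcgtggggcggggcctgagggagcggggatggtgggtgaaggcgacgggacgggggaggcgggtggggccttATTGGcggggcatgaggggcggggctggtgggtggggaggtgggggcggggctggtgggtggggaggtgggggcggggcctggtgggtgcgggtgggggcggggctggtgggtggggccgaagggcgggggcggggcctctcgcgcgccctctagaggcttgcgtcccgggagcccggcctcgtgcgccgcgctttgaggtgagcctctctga

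UNC5B-AS1 and LINC00704 have windows poor in CG dinucleotides (2 each), while SBF2-AS1, LINC00511 and MCM3AP-AS1 have 36, 35 and 27. The window of UNC5B-AS1 holds TATAAA and TGAGTCA, that of LINC00704 CCAAT and TGAGTCA, and that of MCM3AP-AS1 CCAAT. None of the 7 motifs was found in the windows of SBF2-AS1 and LINC00511. Over the 173 matched members, TATAAA was present in 5.78% of windows (11.5% of all windows), CCAAT in 35.3% (34.6%), TGACGTCA in 4.05% (1.85%), TGAGTCA in 4.62% (4.95%), and CCGGAAG in 13.9% (10.3%). TTTCCCGC was present in 1.16% (1.63%) and TTTGGCGC in none (0.652%). A match to these letters is not a binding site.

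For 134 of the 169 antisense RNAs the sense gene was measured under the name that precedes the suffix, and the other 35 sense genes were not analysed here. In GENCODE 29, 58 of these pairs started within 1 kb of each other on opposite strands, with or without overlap. Of the rest, 69 overlapped on opposite strands with starts farther apart, 3 did not overlap, and 4 were not in that annotation. Per kilobase of exon, the antisense RNA was below its sense gene in 110 of 130 pairs with both lengths, at a median of 22.0% of the sense level. The library kit keeps the strand, but the strand setting of the counting is not given in the sources used here, so reads of overlapping antisense and sense genes cannot be told apart.

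Of the 134 sense genes, 10 were called higher and 7 lower, close to the shares of all features (6.15% and 4.67%), and the median log2 fold change was -0.0047, against -0.11 for their antisense RNAs. Both partners were called in 3 pairs, each in 1 direction: UNC5B-AS1 and FLG-AS1 fell with UNC5B and FLG, and HIF1A-AS2 rose with HIF1A. UNC5B had values of 11100, 9830 and 10400 with NC mimic and 9010, 9210 and 8680 with miR-21-3p mimic (log2 fold change -0.22, limma adjusted p = 0.021). FLG had 4140, 3440 and 3950 against 3330, 3300 and 3060 (-0.25, 0.032), and HIF1A had 819, 892 and 819 against 993, 970 and 949 (0.20, 0.043). In each of these genes the groups did not overlap, and the change was smaller than that of the antisense partner. A difference between the partners was not tested.

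The sense calls also depended on single libraries. The 17 sense genes called became 7 without NC mimic replicate 1, 29 without NC mimic replicate 2, 3 without NC mimic replicate 3, 4 without miR-21-3p mimic replicate 1, 16 without miR-21-3p mimic replicate 2 and 6 without miR-21-3p mimic replicate 3. UNC5B and FLG kept their calls only without NC mimic replicate 2 or miR-21-3p mimic replicate 2, with limma adjusted p up to 0.088 and 0.13 in the other fits, and HIF1A only without NC mimic replicate 2 (up to 0.17). So FLG-AS1 with FLG and HIF1A-AS2 with HIF1A were both called only in the full fit and without NC mimic replicate 2 among these fits.

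In 10 pairs the antisense RNA was called and the sense gene was not. SBF2 had values of 1490, 1460 and 1540 with NC mimic and 1450, 1490 and 1430 with miR-21-3p mimic, a log2 fold change of -0.039, and TPT1 had 36600, 36800 and 36400 against 35600, 35900 and 33300, a log2 fold change of -0.068. TMEM9B had 1520, 1640 and 1700 against 1740, 1780 and 1770, where every miR-21-3p mimic sample was higher (log2 fold change 0.12, limma adjusted p = 0.14). Log2 fold changes of further sense genes were 0.11 for PSMG3, -0.076 for UFL1, 0.028 for SH3BP5, 0.024 for INTS6, -0.13 for ZNF205 and 0.042 for MCM3AP. In 14 pairs the sense gene was called and the antisense RNA was not, 9 of them higher and 5 lower. OIP5, a centromere protein gene beside OIP5-AS1, had 684, 770 and 691 against 828, 809 and 931 and was called higher (log2 fold change 0.26, limma adjusted p = 0.039). The 5 lower sense genes, named after their values were seen, were TRIM31 (-0.74), SDCBP2 (-0.66), EPB41L4A (-0.52), CYP1B1 (-0.42) and SETD5 (-0.16).

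No pair had both partners called in opposite directions. Of all 134 pairs, 57 had both log2 fold changes below 0, 25 both above 0 and 52 of opposite sign, and across pairs, which share the same 6 libraries, Pearson's r was 0.23. It was 0.31 over the 69 overlapping pairs and 0.050 over the 58 pairs with starts within 1 kb, given as a description. In RefSeq the promoter windows of 41 of 100 pairs overlapped, and in each the partners were read away from each other. The windows reach farther before a start than after it, so this direction follows largely from their shape and is no finding. LAMTOR5-AS1 and TMEM254-AS1 start 115 and 170 bases from their sense genes but are not read away from them, and their windows did not overlap. TPT1-AS1 starts 162 bases from TPT1, UFL1-AS1 92 bases from UFL1, TMEM9B-AS1 233 bases from TMEM9B and INTS6-AS1 309 bases from INTS6. These 4 were the antisense RNAs called lower among the 41 (4.67% of all features were), 3 of the 41 sense genes were called higher (6.15% of all features were), and in no pair were both called. The median log2 fold change in these 41 pairs was -0.096 for the antisense RNAs and 0.022 for the sense genes.

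**Figure D4:**
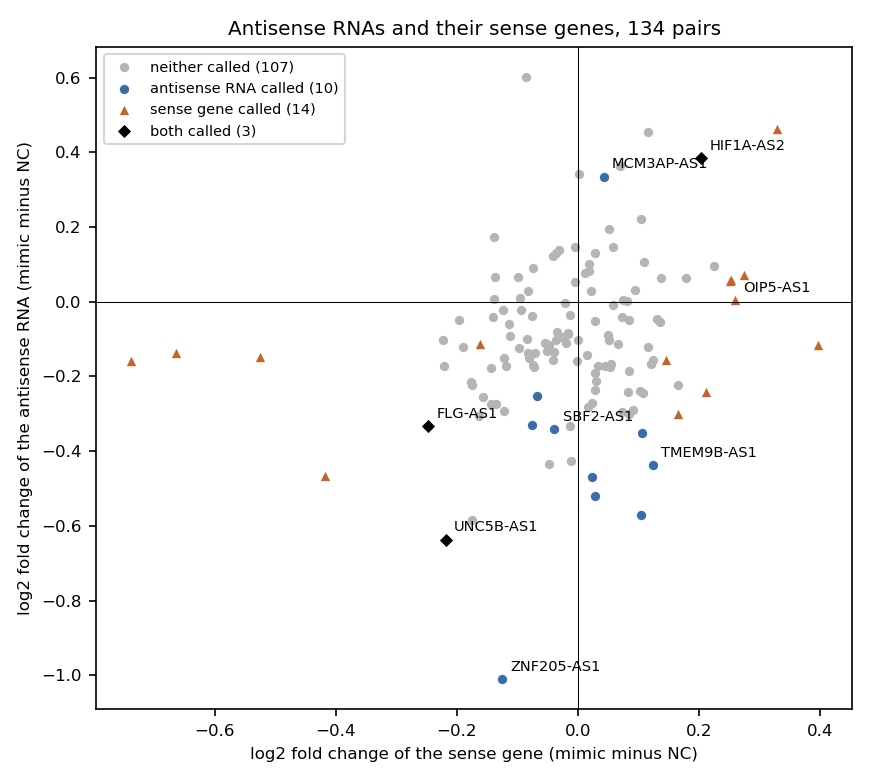
Log2 fold change (miR-21-3p mimic minus NC mimic) of 134 sense genes, horizontal axis, and of their antisense RNAs, vertical axis; blue circles mark pairs with the antisense RNA called, orange triangles those with the sense gene called, and black diamonds the 3 pairs with both called. UNC5B-AS1 and FLG-AS1 lie at the lower left and HIF1A-AS2 at the upper right.

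Long noncoding RNAs outside the naming rule were taken from a list of 62 names, of which 25 were tested. Of these, 3 were called lower (4.67% of all features were), 1 higher (6.15% of all features) and 21 were not called, and the median log2 fold change was -0.051. MALAT1, a nuclear speckle RNA, had values of 15500, 14200 and 14400 with NC mimic and 13300, 11400 and 12300 with miR-21-3p mimic, and fell by 0.26 on the log2 scale (limma adjusted p = 0.020). MIR22HG, the host transcript of miR-22, had 791, 664 and 729 against 625, 586 and 583 (log2 fold change -0.28, limma adjusted p = 0.032), and FTX had 1420, 1230 and 1220 against 1070, 963 and 1170 (-0.27, 0.043). In all 3 the groups did not overlap. NEAT1, the scaffold of paraspeckles, was at 31133 ± 1242 and 30167 ± 3459 (SD, n = 3), and TUG1 at 10933 ± 115 and 10667 ± 115, neither called by limma. Without NC mimic replicate 1 or NC mimic replicate 3, none of the 25 was called by limma, against 7 without NC mimic replicate 2, 3 without miR-21-3p mimic replicate 2, and 1 each without miR-21-3p mimic replicate 1 or replicate 3.

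Of 20 long noncoding RNAs listed for keratinocytes and squamous tumours, 7 were measured. TINCR, which is also the 1 RNA called higher among the 25 above, rose, with values of 5880, 5740 and 5730 with NC mimic and 6640, 6520 and 6270 with miR-21-3p mimic (log2 fold change 0.16, limma adjusted p = 0.031), and LINC00511, described above, fell. In TINCR every miR-21-3p mimic sample was above every NC mimic sample. Its call was kept only without NC mimic replicate 2 (limma adjusted p = 0.034). It was lost without NC mimic replicate 1 (0.057), NC mimic replicate 3 (0.13), miR-21-3p mimic replicate 1 (0.14), miR-21-3p mimic replicate 2 (0.061) or miR-21-3p mimic replicate 3 (0.057). The others were not called: UCA1 had a mean of 10190 and 10057 in the NC mimic and miR-21-3p mimic groups, MIR205HG, the host transcript of miR-205, 9187 and 9363, MIR31HG 982 and 1023, DANCR, known for keeping epidermal progenitors undifferentiated, 397 and 367, and LINC00319 57.7 and 50.7.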

How the data were processed

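The deposited values are read counts per gene that the authors divided by 1 size factor per sample (a normalised signal), written to 3 significant digits. The submitters' processing notes name bcl2fastq 2.18.12, cutadapt 1.15, TopHat2 2.1.1, featureCounts of Subread 1.5.2 and DESeq2; the genome build, annotation and strand setting are not given in the sources used here. Of the values of up to 90 reads, 100% in each sample came out as whole reads (tolerance 0.1). As the values are normalised, limma 3.58.1 (R 4.3.3) was fitted with trend to log2(value + 1), a scale that understates changes of low genes, for features with a mean of at least 10 and with group as the only term; Benjamini-Hochberg adjusted p-values run over all 14782 features. DESeq2 1.42.0 and, chosen after seeing the data, edgeR 4.0.16 were run on the recovered reads; edgeR called 1640 features and 21 members. The fits were tested on simulated data with a fixed spread: limma called, with the right sign, 99 of 100 features changed by 1 on the log2 scale and 52 of 100 changed by 0.5, with 7 false calls among 14579 unchanged features. The changed features all had a mean of at least 50, and no library was made to differ from its group. The result therefore does not cover the 35 members below that mean or the dependence on single libraries. Named genes are called members (at most 15 in each direction), the 5 most abundant of each class, sense genes of these, members next to the mean of 10, and list genes called or among the 5 most abundant. One called member is not reported here by name. Members and lists were chosen with earlier results of these data known. Current symbols come from Ensembl identifiers, arrangements and lengths from GENCODE 29 and promoters from RefSeq (GRCh38.p14); the authors' annotation may differ. P-values measure the spread between these cultures of 1 line.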

Additional observations from a re-analysis of the deposited data

How the results depend on the processing

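In the fit with a replicate block, 1202 features were called, with 1 member higher and 12 lower (3 LINC RNAs). The numbers of the replicates share only a number: r between samples of the same number was -0.0059, -0.20 and -0.17, and no sample correlated best with its own number in the other group. Without the variance trend limma called 48 features and no member (0 higher, 0 lower, 0 LINC, 0 antisense), 0 sense genes and 0 other long noncoding RNAs. In that fit 67 members had an unadjusted p under 0.05, a count not analysed over all features. For comparison, edgeR called 21 members and DESeq2 17. DESeq2 called 1 member higher and 16 lower. The member median was -0.093 after quantile normalisation. Leaving out 1 library gave 179 to 2961 features called, 0 to 5 members higher, 2 to 29 lower, 0 to 8 LINC RNAs, 2 to 26 antisense RNAs, 3 to 29 sense genes, 0 to 7 other RNAs, and a member median of -0.12 to -0.093. Signs near 0 turned. LINC00657 was -0.0024 in DESeq2, -0.0021 and -0.0034 in edgeR (TMM, RLE) and -0.026 to 0.037 with 1 library left out. OIP5-AS1 was -0.0056 after quantile normalisation, -0.00027 in DESeq2, -0.0012 in edgeR (RLE) and -0.019 to 0.025 with 1 library left out, and INTS6 was -0.0010 after quantile normalisation. With 1 library left out, C17orf76-AS1 ranged from -0.011 to 0.040, SH3BP5 from -0.0031 to 0.071, TTN from -0.20 to 0.023, UCA1 from -0.050 to 0.032, MIR31HG from -0.027 to 0.14 and NEAT1 from -0.12 to 0.042. The cause of these differences was not tested. The samples are cultures of 1 immortalised line at 1 dose and 1 time, and polyadenylated RNA misses RNAs without a tail.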
